A study of Mus musculus with 24 samples.

Results

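The transcription factors of the primitive streak and the endoderm described here are Eomes, T, Evx1, Mixl1, Gsc and Foxa2, 6 of the 16617 genes measured. They were chosen by name from a list of 7 symbols, and the other one, Lhx1, was not analysed here. RNA was sequenced as 3′ tags, 1 short read from the poly(A) end of each captured transcript, in mouse embryonic stem cells of 4 lines and 2 states. Kmt2c and Kmt2d encode MLL3 and MLL4, which methylate lysine 4 of histone H3 mainly at enhancers, and the study compared lines that lack the proteins or their catalytic activity while cells left the naive state. The knockout line is MLL3KO_MLL4KO. Its comparator is MLL3KO_MLL4fl, called floxed here, which also carries the MLL3 knockout. The catalytic-dead line is MLL3CD_MLL4CD, compared with wild type (WT), and the labels give R1 as the cell line of both but no cell line for the other 2. Formative cells were taken 63 h after LIF and the inhibitors of naive culture were withdrawn, and naive cells were the starting state of each line. Each genotype is represented by its own line, so floxed against wild type joins the loss of MLL3 with any other difference between those lines, and the labels do not say how many clones stand behind a line.

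In the embryo the primitive streak is where epiblast cells leave the pluripotent layer to form mesoderm and definitive endoderm, under Nodal, Wnt and Bmp signals. T (Brachyury) and Eomes are T-box factors of the streak, Evx1 and Mixl1 are homeodomain factors of it, Gsc is a homeodomain factor of its anterior end, and Foxa2 is a forkhead factor of anterior streak, node and endoderm. In embryonic stem cell cultures these genes are known for low and uneven levels, since some cells can begin to differentiate.

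The labels list 3 samples in each of 8 groups, and the deposited table gives 1 average per group, from which the counts of 23 libraries were recovered, 4808564 to 15425959 counts each. The naive wild-type column averaged 2 libraries. In the formative knockout column 4 libraries had been averaged, and 1 of them was also in the formative catalytic-dead column. That library correlated at 0.46 or more with the other formative catalytic-dead libraries and at 0.07 or less with the other formative knockout libraries, and it was counted as catalytic-dead only. Libraries are named a, b and c by falling depth within a group. Kmt2d was at 17.8 to 24.4 and 15.3 to 19.1 CPM (read counts scaled to a common library total) in the libraries of formative and naive knockout cells, against deposited means of 25.3 and 28.6 CPM in formative and naive floxed cells. In formative catalytic-dead libraries Kmt2d was at 18.8 to 22.3 CPM, against a deposited mean of 35.5 CPM in formative wild-type cells. Naive catalytic-dead libraries, at 26.1 to 28.6 CPM, overlapped naive wild-type libraries, at 27.6 to 30.0 CPM. Kmt2c had deposited means of 19.0 and 23.2 CPM in formative and naive floxed cells, against 36.9 and 48.6 CPM in formative and naive wild-type cells. In formative and naive catalytic-dead cells its deposited means were 35.2 and 67.2 CPM. A tag outside the deleted part of a gene does not show a deletion. As a check of the states, the median deposited difference of formative minus naive cells over 12 naive pluripotency genes was -1.98, -2.50, -2.27 and -2.73 log2 in the knockout, floxed, catalytic-dead and wild-type lines. Over 12 formative genes it was 2.75, 2.12, 2.41 and 3.20 log2 in the same lines. The knockout values of this check use the formative knockout column with the shared library included.

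In formative wild-type cells Eomes, T, Evx1 and Mixl1 had their highest mean CPM of the 8 groups. Eomes overlapped the next group, naive catalytic-dead cells. Mixl1 overlapped naive knockout cells and stood below them by mean log2 CPM (1.26 against 1.29). Over the wild-type transition 3 of the 6 genes rose (Eomes, T and Evx1). Of all genes tested there, 18.6% rose. The other lines differed in which members passed and in their direction. In the knockout line 1 rose (Eomes) and 2 fell (Gsc and Foxa2), where 24.2% of all genes rose or fell. In the floxed line 2 fell (Eomes and Evx1) and 0 rose, where 9.99% of all genes fell. In the catalytic-dead line 1 fell (Eomes) and 0 rose, where 9.42% of all genes fell. The median difference of the 6 genes was -0.63, -0.77, -1.21 and 1.33 log2 in the knockout, floxed, catalytic-dead and wild-type lines, beside 0.31, 0.21, 0.15 and 0.16 log2 over all genes tested. "Rose" and "fell" are used where the Benjamini-Hochberg adjusted p of limma was under 0.05 over all genes tested. The 0 counts in 1 direction stood at 0 at an unadjusted p under 0.05 as well, while in the catalytic-dead line 4 genes were lower at that level.

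**Figure D1:**
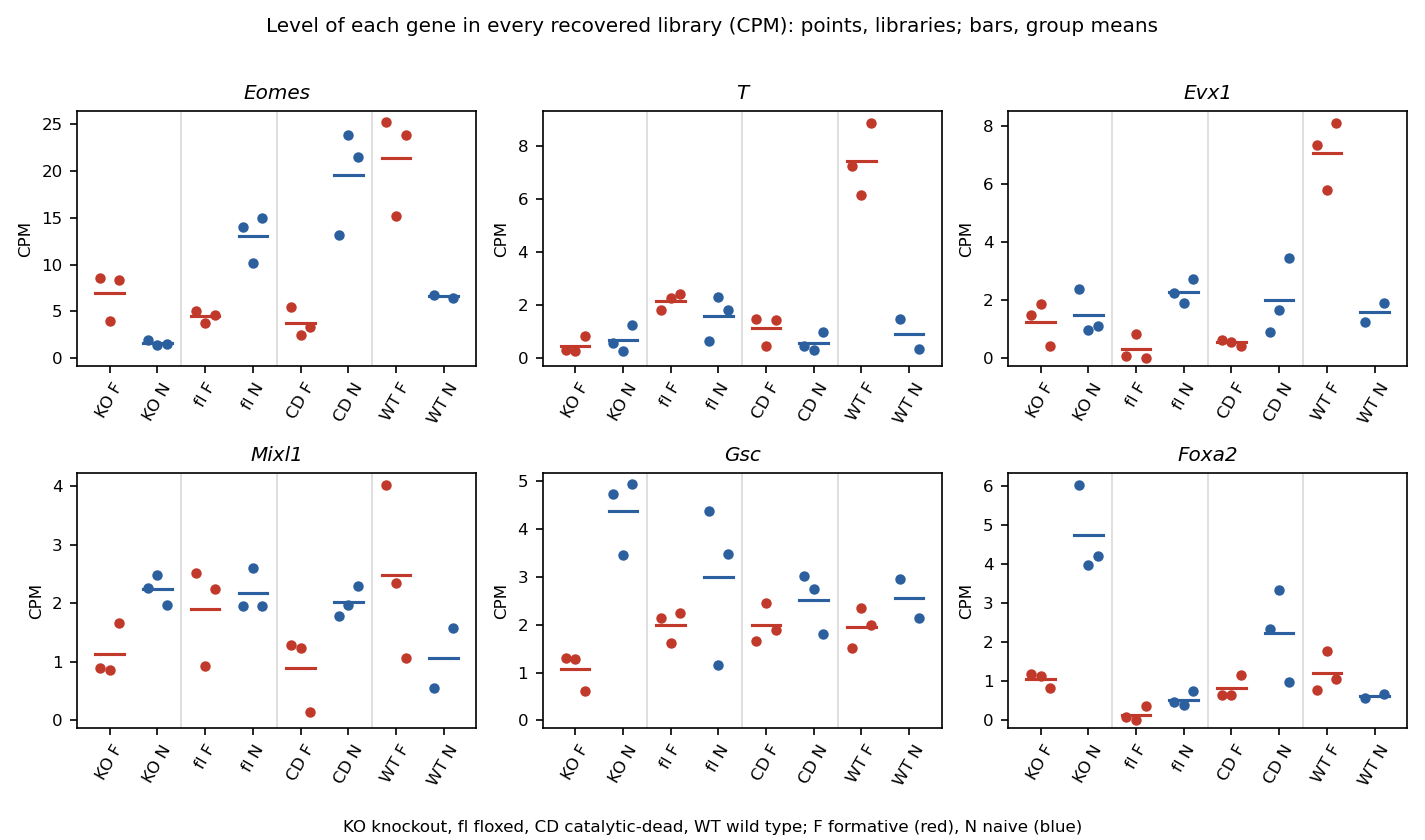
Each panel plots 1 gene, with its level in CPM on a linear axis and the 8 groups on the other; each point is a library and each bar a group mean. Formative wild-type cells stand highest for T (6.18 to 8.90 CPM) and Evx1 (5.79 to 8.10 CPM), and naive knockout cells stand highest for Foxa2 (3.99 to 6.03 CPM).

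Eomes, on chromosome 9 at 118478212 to 118486132 on the plus strand of GRCm38, gave the highest mean CPM of the 6 in each group but naive knockout cells, where it was below Foxa2, Gsc and Mixl1. These CPM of 3′ tags are not divided by gene length. A promoter is shown for it and for the other genes that rose in wild-type cells, since these moved together there. The window is the 250 bases before the RefSeq start (GRCm38.p6, chr9:118477939-118478188, plus strand), 5′ to 3′, with a paired-type homeodomain match in capitals.
Eomes promoter: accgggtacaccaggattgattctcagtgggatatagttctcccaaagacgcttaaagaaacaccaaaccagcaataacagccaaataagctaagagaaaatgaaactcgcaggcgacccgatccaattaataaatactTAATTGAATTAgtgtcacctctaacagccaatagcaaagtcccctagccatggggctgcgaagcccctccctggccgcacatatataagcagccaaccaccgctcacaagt
The match reads TAATTGAATTA, begins 111 bases before the start, and was found with the letters TAATNNNATTA on both strands, which 0.463% of 32851 windows of this length hold.

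Libraries a, b and c of formative wild-type cells had 25.2, 15.2 and 23.9 CPM of Eomes, against 6.81 and 6.45 CPM in libraries a and b of naive wild-type cells. Formative floxed cells had 5.04, 3.81 and 4.67 CPM, against 14.0, 10.2 and 15.0 CPM in naive floxed cells. The 2 lines thus ran in opposite directions, with no overlap between states in either. Formative knockout cells had 8.62, 4.00 and 8.32 CPM, against 1.94, 1.42 and 1.49 CPM in naive knockout cells, the lowest of all groups. Formative catalytic-dead cells had 5.44, 2.46 and 3.32 CPM, against 13.2, 23.9 and 21.5 CPM in naive catalytic-dead cells. States did not overlap in these lines either. Eomes rose over the transition by 1.63 ± 0.31 log2 (SE) in wild-type cells (adjusted p = 0.000123) and by 1.91 ± 0.43 in knockout cells (adjusted p = 0.00129). It fell by 1.48 ± 0.30 log2 in floxed cells (adjusted p = 0.000365) and by 2.35 ± 0.32 in catalytic-dead cells (adjusted p = 1.91e-06). These calls held with each library left out in turn. The log2 differences are on a scale with a prior count of 2, which understates changes of low genes.

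Within the naive state Eomes was lower in knockout than in floxed cells by 2.85 log2 (SE 0.40, adjusted p = 7.54e-06). It was higher in naive catalytic-dead than in naive wild-type cells, by 1.49 log2 (SE 0.32, adjusted p = 0.0025). That call was lost without naive wild-type library a, which leaves 1 library assumed to vary like the other groups (1.52 log2, adjusted p = 0.0503; 0.000853 to 0.0503 over 13 fits). Naive floxed cells lay above naive wild-type cells by 0.94 log2 without passing (SE 0.32, adjusted p = 0.0919), and passed without naive floxed library b (1.10 log2, adjusted p = 0.047; 0.047 to 0.328 over 13 fits). Among formative cells Eomes fell by 2.49 log2 in catalytic-dead against wild-type cells (SE 0.31, adjusted p = 8.67e-06) and by 2.18 in floxed against wild-type cells (SE 0.29, adjusted p = 6.36e-06). Formative knockout and floxed cells did not differ past the threshold (0.54 log2, SE 0.35, adjusted p = 0.331). By mean level the order was formative wild type (21.4 CPM), naive catalytic-dead (19.5), naive floxed (13.0), formative knockout (6.98), naive wild type (6.63), formative floxed (4.51), formative catalytic-dead (3.74) and naive knockout cells (1.62). Of neighbours in that order, naive floxed and formative knockout, naive wild type and formative floxed, and formative catalytic-dead and naive knockout cells did not overlap. An annotated antisense transcript, Gm33460 (118485559 to 118489099, minus strand), covers the 3′ end of Eomes and has no row of its own. Whether counting used strand is not given in the labels or notes used here, so its reads and those of Eomes cannot be told apart.

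The same question was put to the difference between transitions, formative minus naive in one line less that in another. For Eomes it was 3.40 log2 in knockout less floxed (SE 0.53, adjusted p = 0.000115) and -3.98 in catalytic-dead less wild type (SE 0.44, adjusted p = 6.79e-06). In floxed less wild type it was -3.11 (SE 0.43, adjusted p = 0.000155). The last 2 share the wild-type libraries, and the first and the last share the floxed libraries, which enter them with opposite sign. Of the 6 genes 1 was higher in the first, as were 4.48% of all genes tested. In the second 2 were lower, as were 1.06% of all genes tested. Floxed less wild type also had 2 that were lower, as were 0.474% of all genes tested. Evx1 was the other gene in both, at -3.42 log2 in catalytic-dead less wild type (SE 0.76, adjusted p = 0.0104) and -4.69 in floxed less wild type (SE 0.75, adjusted p = 0.000811). Its call in the catalytic-dead line was lost without naive wild-type library a (-3.15 log2, adjusted p = 0.0595) or naive catalytic-dead library c (-2.97 log2, adjusted p = 0.0532); over 19 fits its adjusted p was 0.00684 to 0.0595. In knockout less floxed Evx1 was at 2.36 log2 (SE 0.79, adjusted p = 0.0681). It passed there without formative floxed library b (3.07 log2, adjusted p = 0.00623) or formative knockout library c (2.89 log2, adjusted p = 0.0216), with 0.00623 to 0.203 over 20 fits. T in floxed less wild type was at -2.45 log2 (SE 0.69, adjusted p = 0.0765) and passed without naive floxed library a (-2.91 log2, adjusted p = 0.034; 0.034 to 0.357 over 19 fits).

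**Figure D2:**
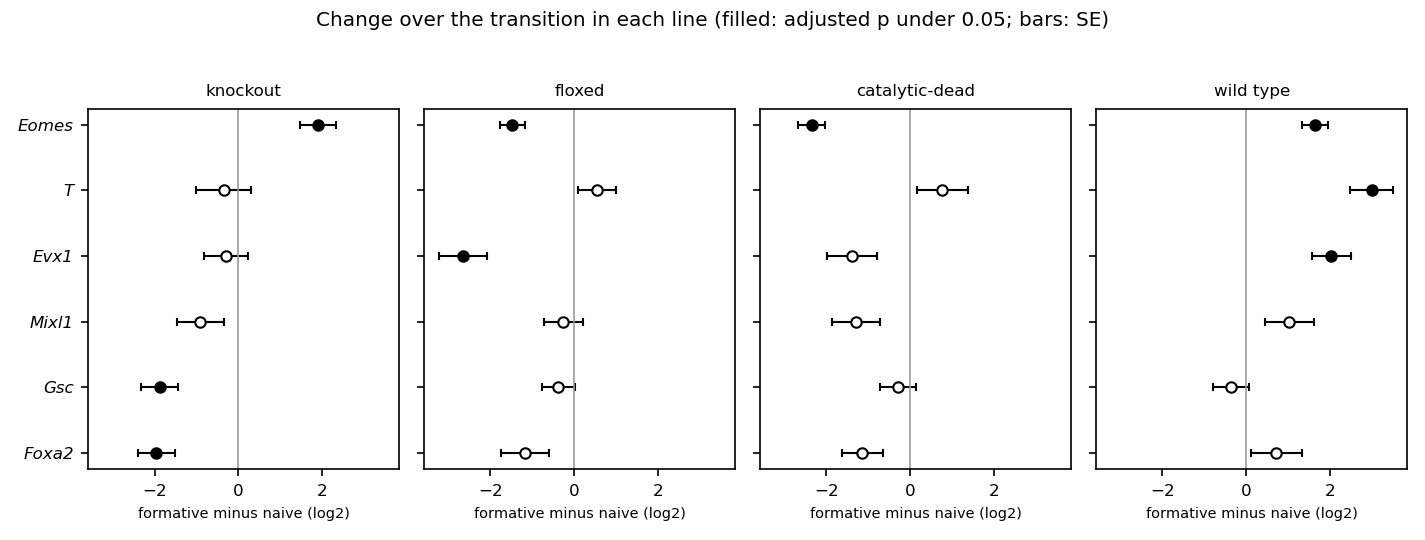
The 4 panels are the lines, the horizontal axis is formative minus naive in log2, points are fitted differences with SE bars, and filled points have an adjusted p under 0.05. Eomes lies at 1.91 in knockout, -1.48 in floxed, -2.35 in catalytic-dead and 1.63 in wild-type cells.

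T, on chromosome 17 at 8434423 to 8442496 on the plus strand, gave few counts outside formative wild-type cells. Its promoter window (chr17:8434173-8434422, plus strand) is shown with a T-box site match in capitals.
T promoter: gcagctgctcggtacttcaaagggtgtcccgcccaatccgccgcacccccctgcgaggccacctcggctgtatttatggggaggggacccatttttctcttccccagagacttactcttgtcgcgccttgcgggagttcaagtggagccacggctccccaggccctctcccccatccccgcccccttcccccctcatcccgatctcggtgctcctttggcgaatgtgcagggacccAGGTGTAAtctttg
The match reads AGGTGTAA and begins 14 bases before the start; 2.68% of windows hold the letters AGGTGTNA on either strand.

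Formative wild-type cells had 7.27, 6.18 and 8.90 CPM of T (101, 63 and 67 counts), against 1.47 and 0.339 CPM in naive wild-type cells (21 and 3 counts). All formative wild-type libraries lay above every other library of the series. Formative floxed cells had 1.83, 2.29 and 2.43 CPM, against 0.652, 2.31 and 1.81 CPM in naive floxed cells. Formative catalytic-dead cells had 1.5, 0.473 and 1.45 CPM, against 0.447, 0.304 and 0.984 CPM in naive catalytic-dead cells. In formative knockout cells 3, 2 and 4 counts were found (0.301, 0.285 and 0.832 CPM), against 9, 3 and 10 counts in naive knockout cells (0.583, 0.266 and 1.24 CPM). These last 2 groups overlapped, and formative knockout cells and naive knockout library b stood close to the level of 3 counts. T rose in the wild-type transition by 2.99 log2 (SE 0.51, adjusted p = 3.45e-05). Its transition differences in knockout (-0.35 log2, SE 0.65), floxed (0.54, SE 0.46) and catalytic-dead cells (0.76, SE 0.61) did not pass.

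Among formative cells T fell in the catalytic-dead line against wild type by 2.61 log2 (SE 0.43, adjusted p = 0.000242). It fell in the floxed line against wild type by 1.68 log2 (SE 0.35, adjusted p = 0.00202), a call that was lost in the fit without weights (-1.68 log2, adjusted p = 0.0591; 0.000929 to 0.0591 over 14 fits). In formative knockout against floxed cells it fell by 1.90 log2 (SE 0.56, adjusted p = 0.0194). This call was lost without formative knockout library a (-1.73 log2, adjusted p = 0.0928) or library b (-1.71 log2, adjusted p = 0.0997). It was also lost with a prior count 4 times smaller (adjusted p = 0.0816) and with the knockout column as deposited (adjusted p = 0.0615), and over 14 fits the adjusted p was 0.0118 to 0.0997. In the naive state no comparison of T passed.

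Evx1, on chromosome 6 at 52313498 to 52318378 on the plus strand, rose in wild-type cells, as T did, and fell in floxed cells, as Eomes did. An annotated antisense transcript, Evx1os (52308389 to 52314832, minus strand), overlaps its 5′ part but not its 3′ end. No searched motif lies in its promoter window (chr6:52313248-52313497, plus strand), which is shown in lower case for comparison with the other genes that rose in wild-type cells.
Evx1 promoter: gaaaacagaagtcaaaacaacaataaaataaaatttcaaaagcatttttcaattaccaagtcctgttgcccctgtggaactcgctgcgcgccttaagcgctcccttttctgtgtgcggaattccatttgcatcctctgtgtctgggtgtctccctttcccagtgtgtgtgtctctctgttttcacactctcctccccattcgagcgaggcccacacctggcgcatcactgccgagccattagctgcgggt
The motifs searched on both strands were AGGTGTNA (T-box site), CTTTGAT (TCF/LEF, in 3.21% of windows), AATNNACA (FOXH1, 10.9%), TGTTTAC (FOXA, 3.17%) and TAATNNNATTA (paired-type homeodomain). The windows of Gsc and of the 3 RefSeq start sites of Foxa2 held no match either, and those of Eomes and T held the 1 match each shown above.

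Formative wild-type cells had 7.35, 5.79 and 8.10 CPM of Evx1, against 1.26 and 1.92 CPM in naive wild-type cells. Formative floxed cells had 1, 10 and 0 counts (0.0764, 0.847 and 0 CPM), and the 0 in library c allows up to 0.28 CPM. Naive floxed cells had 2.24, 1.92 and 2.72 CPM, above all formative floxed libraries. Formative catalytic-dead cells had 0.644, 0.568 and 0.434 CPM, against 0.894, 1.67 and 3.45 CPM in naive catalytic-dead cells. Formative knockout cells had 1.5, 1.86 and 0.416 CPM, against 2.40, 0.976 and 1.11 CPM in naive knockout cells, and these 2 groups overlapped. Evx1 rose in the wild-type transition by 2.03 log2 (SE 0.46, adjusted p = 0.00113) and fell in the floxed transition by 2.66 log2 (SE 0.58, adjusted p = 0.000757). The catalytic-dead difference was -1.39 log2 (SE 0.60, adjusted p = 0.0869) and passed without naive catalytic-dead library a (-1.81 log2, adjusted p = 0.0364; 0.0364 to 0.352 over 14 fits). The knockout difference was -0.30 log2 (SE 0.53, adjusted p = 0.742).

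Between lines in the formative state Evx1 fell by 4.20 log2 in floxed against wild-type cells (SE 0.53, adjusted p = 2.64e-06) and by 3.27 in catalytic-dead against wild-type cells (SE 0.51, adjusted p = 0.000146). Formative knockout against floxed cells gave 1.72 log2 (SE 0.64, adjusted p = 0.0667). This difference passed without formative floxed library b (2.44 log2, adjusted p = 0.00319), without formative knockout library c (2.26 log2, adjusted p = 0.0193), without weights (adjusted p = 0.0319) and under a 5 times stricter filter (adjusted p = 0.0391). Over 14 fits the adjusted p was 0.00319 to 0.273. Evx1 differed past the threshold in no naive comparison of lines.

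Counted over the set, formative floxed against wild-type cells had 4 of 6 genes that fell (Eomes, T, Evx1 and Foxa2), where 4.78% of all genes tested fell. Formative catalytic-dead against wild-type cells had 3 that fell (Eomes, T and Evx1), where 2.56% fell. The median difference over the 6 genes was -1.88 and -1.94 log2 in these comparisons, against 0.00 and 0.06 log2 over all genes tested. Both use the same wild-type libraries. Naive catalytic-dead against wild-type cells had 1 that rose (Eomes), where 4.91% of all genes rose. In naive floxed against wild-type cells limma called 0 of 6, and 1 (Eomes) was higher at an unadjusted p under 0.05; 4.84% of all genes rose or fell there. Naive knockout against floxed cells had 1 that rose (Foxa2) and 1 that fell (Eomes), where the share was 15.8%. Formative knockout against floxed cells had 1 that rose (Foxa2) and 1 that fell (T), where it was 14.8%. That count was 0 without formative knockout library a, 1 without formative knockout library b or formative floxed library a, and 3 without formative knockout library c. In these averages of whole cultures, fewer cells that express a gene and less RNA per cell cannot be told apart.

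**Figure D3:**
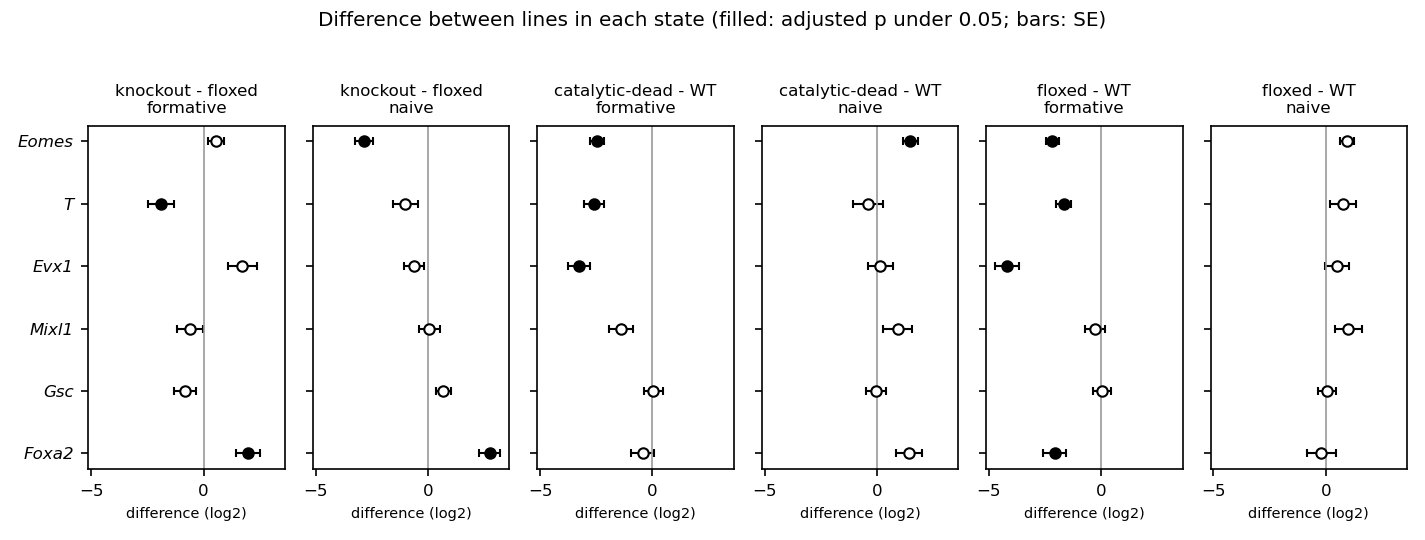
Each panel is 1 comparison of lines within a state, with the log2 difference on the horizontal axis, SE bars, and filled points where the adjusted p was under 0.05. In formative cells against wild type, Eomes, T and Evx1 lie at -2.49, -2.61 and -3.27 in the catalytic-dead line and at -2.18, -1.68 and -4.20 in the floxed line.

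Mixl1, on chromosome 1 at 180693043 to 180697034 on the minus strand, passed in none of the comparisons, with 0.145 to 4.03 CPM over all libraries. Formative wild-type cells had 4.03, 2.35 and 1.06 CPM, against 0.562 and 1.58 CPM in naive wild-type cells. The wild-type libraries spread widely and overlapped between states (1.03 log2, SE 0.59, adjusted p = 0.202). Without formative wild-type library c the transition difference was 1.49 log2 with an adjusted p of 0.05 after rounding, just under the threshold (0.05 to 0.745 over 12 fits). Formative catalytic-dead cells had 1.29, 1.23 and 0.145 CPM, against 1.79, 1.98 and 2.30 CPM in naive catalytic-dead cells, without overlap but without passing (-1.29 log2, SE 0.57, adjusted p = 0.0964). Formative catalytic-dead against wild-type cells gave -1.40 log2 (SE 0.52, adjusted p = 0.106), which passed without formative wild-type library c (-1.86 log2, adjusted p = 0.0253; 0.0253 to 0.502 over 13 fits). Knockout and floxed cells lay between 0.856 and 2.60 CPM in both states.

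Gsc, on chromosome 12 at 104471209 to 104473330 on the minus strand, changed in the knockout line. Formative knockout cells had 1.3, 1.28 and 0.624 CPM, against 4.73, 3.46 and 4.95 CPM in naive knockout cells. It fell there by 1.88 log2 (SE 0.45, adjusted p = 0.00234), with no overlap of the states and with the call kept whichever library was left out. The formative knockout group had the lowest mean of all 8 and overlapped only naive floxed cells, through library b at 1.15 CPM. In the other lines Gsc lay at 1.51 to 2.46 CPM in formative cells and 1.15 to 4.38 CPM in naive cells. Its transition differences there were -0.38 (floxed), -0.30 (catalytic-dead) and -0.36 log2 (wild type), none of which passed. The difference between the knockout and floxed transitions was -1.5 log2 (SE 0.60, adjusted p = 0.132).

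Foxa2, on chromosome 2 at 148042877 to 148046969 on the minus strand, was the gene of the set most raised in naive knockout cells. Naive knockout cells had 6.03, 3.99 and 4.21 CPM, against 0.466, 0.384 and 0.755 CPM in naive floxed cells. The knockout libraries lay above every library of every other group, and the difference was 2.75 log2 (SE 0.47, adjusted p = 9.57e-05). Naive catalytic-dead cells had 2.35, 3.35 and 0.984 CPM, against 0.562 and 0.679 CPM in naive wild-type cells. These groups did not overlap, but the difference did not pass (1.42 log2, SE 0.58, adjusted p = 0.129). It passed without naive catalytic-dead library c (1.87 log2, adjusted p = 0.046; 0.046 to 0.415 over 12 fits).

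Over the knockout transition Foxa2 fell by 1.96 log2 (SE 0.44, adjusted p = 0.00107), with 1.20, 1.14 and 0.832 CPM in formative knockout cells. Formative floxed cells held 1, 0 and 4 counts (0.0764, 0 and 0.373 CPM), the lowest of all groups, and the 0 in library b allows up to 0.254 CPM. Formative wild-type cells had 0.792, 1.77 and 1.06 CPM. At these few counts Foxa2 rose by 1.96 log2 in formative knockout against floxed cells (SE 0.54, adjusted p = 0.0136) and fell by 2.08 log2 in formative floxed against wild-type cells (SE 0.51, adjusted p = 0.00919). The first call was lost without formative floxed library a (1.86 log2, adjusted p = 0.0558), formative floxed library b (1.64, adjusted p = 0.0919) or formative knockout library a (1.88, adjusted p = 0.0604), with 0.00224 to 0.0919 over 13 fits. The second was lost without formative wild-type library b (-1.81 log2, adjusted p = 0.0639), without formative floxed library b (-1.75, adjusted p = 0.0912) and in a fit of these groups alone (adjusted p = 0.0501), with 0.00124 to 0.0912 over 13 fits. The floxed transition (-1.17 log2, SE 0.57, adjusted p = 0.127) passed without formative floxed library c (-1.59, adjusted p = 0.0288; 0.0288 to 0.381 over 13 fits). The catalytic-dead transition (-1.14 log2, SE 0.50, adjusted p = 0.0901) passed without naive catalytic-dead library c (-1.59, adjusted p = 0.0191; 0.0191 to 0.328 over 13 fits).

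Foxa2 and Eomes are also used by extraembryonic lineages, so markers of these were set beside them, with those of neuroectoderm added. Of 17 primitive endoderm genes listed, 11 had a row under their symbol, and Sox17, Sox7, Pdgfra and Hnf4a had none. Library values were found for 6 of the 11 (Amn, Col4a2, Foxq1, Gata4, Gata6 and Lama1). Their summed level was 26.4 to 30.1 CPM in naive knockout and 12.4 to 18.5 CPM in naive floxed cells. It was 11.6 to 14.2 CPM in naive catalytic-dead and 12.7 to 18.3 CPM in naive wild-type cells. Of 7 tested in naive knockout against floxed cells, the collagen gene Col4a2 (2.59 log2, adjusted p = 1.18e-06) and the forkhead gene Foxq1 (2.02, adjusted p = 0.0122) rose and the laminin gene Lamb1 fell (-0.69, adjusted p = 0.0152). Of all genes, 15.8% rose or fell there. Col4a2 alone was at 13.6 CPM in naive knockout and 2.07 CPM in naive floxed cells. For the catalytic-dead line against wild type in the naive state, where 9.13% of all genes rose or fell, 1 of 8 rose, Col4a1 (1.05 log2, adjusted p = 0.0116), and 1 fell, Lama1 (-1.47, adjusted p = 0.0129). The endocytic adaptor Dab2, which has no library values in every group, had deposited means of 24.6 CPM in naive knockout and 2.32 CPM in naive floxed cells, and of 49.4 CPM in naive catalytic-dead and 3.25 CPM in naive wild-type cells. Col4a1, likewise outside the sums, had 23.3 CPM in naive knockout and 7.03 CPM in naive floxed cells. Sparc and Lamc1, also outside them, went the other way, at 296 and 58.8 CPM in naive knockout and 780 and 84.1 CPM in naive floxed cells. Over all 11 genes the deposited means summed to 445 CPM in naive knockout and 911 CPM in naive floxed cells. In naive catalytic-dead and naive wild-type cells they summed to 701 and 584 CPM. The deposited means of the defining factors Gata4 and Gata6 were 1.09 and 0.482 CPM in naive knockout and 0.298 and 0.526 CPM in naive floxed cells, and none of the 11 was at 0 in these groups. For 9 of 11 trophoblast genes the sum was 53.1 to 56.1 CPM in naive knockout and 41.3 to 53.9 CPM in naive floxed cells, where Eomes was lower in knockout. It was 60.1 to 61.4 CPM in naive catalytic-dead and 35.3 to 43.0 CPM in naive wild-type cells, where Eomes was higher in catalytic-dead, and Hand1 was at 0 in naive floxed cells. Members of this list moved in both directions in naive knockout against floxed cells, where 4 of 9 tested rose, led by the caudal factor Cdx2 (2.73 log2, adjusted p = 0.00407) and the keratin gene Krt7 (2.24, adjusted p = 0.00393). The 2 that fell were Ascl2 (-1.42 log2, adjusted p = 0.00139) and Tead4 (-1.32, adjusted p = 2.7e-05). Of all genes, 15.8% rose or fell in that comparison. For the naive catalytic-dead line against wild type 2 of 10 rose, the keratin gene Krt18 (2.32 log2, adjusted p = 2.24e-05) and Gata2 (2.07, adjusted p = 0.0156), and Ascl2 fell (-1.41, adjusted p = 0.0248). Krt18, outside the sums, had deposited means of 44.3 CPM in naive knockout and 12.2 CPM in naive floxed cells. Tfap2c, also outside them, had 144 and 75.0 CPM there, and 88.0 and 121 CPM in naive catalytic-dead and wild-type cells. Over all 11 trophoblast genes the deposited means summed to 242 CPM in naive knockout and 135 CPM in naive floxed cells. In naive catalytic-dead and naive wild-type cells these sums were 176 and 166 CPM. For 8 of 11 neuroectoderm genes the sum was 49.5 to 51.8 CPM in formative knockout and 14.8 to 17.4 CPM in formative floxed cells. It was 26.6 to 37.3 CPM in formative catalytic-dead and 20.3 to 21.7 CPM in formative wild-type cells, with none at 0 in these groups. Over all 11 genes the deposited means summed to 143 CPM in formative knockout and 96.6 CPM in formative floxed cells. In formative catalytic-dead and wild-type cells they summed to 94.5 and 102 CPM. Nes, outside the first sums, had 28.9, 47.7, 19.1 and 52.1 CPM in the same order of groups. The formative knockout means include the shared library. The part of these lineages in the results above was not tested.

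Other genes of the streak and its mesoderm were read from a list of 22, of which 17 had a row. In the wild-type transition 4 of 17 tested rose and 4 fell, where 30.6% of all genes rose or fell, with a median of 0.12 log2 over the list and 0.16 over all genes tested. Those with the largest rise were Hoxb1, a Hox gene of posterior mesoderm (4.01 log2, adjusted p = 2.64e-10), and the zinc finger factor Sp8 (3.42, adjusted p = 8.88e-05). Kdr, the VEGF receptor of early mesoderm, fell by 3.24 log2 (adjusted p = 2.89e-06) and the caudal factor Cdx1 fell by 2.66 (adjusted p = 2.85e-07). Of 18 definitive endoderm and node genes listed, 14 had a row under their symbol, and Sox17, Cer1, Shh and Noto had none. Of the 14, 11 were tested and 2 rose, where 18.6% of all genes rose. These were the forkhead factors Foxa1 (2.70 log2, adjusted p = 9.79e-05) and Foxj1 (2.63, adjusted p = 0.00134). No gene of that list fell there.

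In formative floxed against wild-type cells 1 of 17 streak and mesoderm genes rose, the caudal factor Cdx4 (3.30 log2, adjusted p = 0.000175), and 3 fell, where 8.07% of all genes rose or fell. Among these Sp5, a target of Wnt signalling, fell by 2.33 log2 (adjusted p = 1.36e-05) and Hoxb1 by 1.68 (adjusted p = 0.00573), and the list's median was -0.87 log2 against 0.00 over all genes tested. The catalytic-dead line in the formative state, set against wild type, had 2 of 17 that rose and 2 that fell, where 6.15% of all genes rose or fell. Sp5 fell there by 2.02 log2 (adjusted p = 0.00017) and Sp8 by 1.76 (adjusted p = 0.00261), while the epithelial-mesenchymal factor Snai2 rose by 2.14 (adjusted p = 0.0134) and the Notch ligand Dll1 by 1.66 (adjusted p = 0.0136). In naive knockout against floxed cells 2 of 15 rose, Cdx2 (2.73 log2, adjusted p = 0.00407) and Sp5 (1.37, adjusted p = 3.46e-05). In the same comparison 2 fell, Kdr (-2.60 log2, adjusted p = 0.00045) and the growth factor Fgf17 (-1.63, adjusted p = 0.00278), where 15.8% of all genes rose or fell. Of the endoderm and node genes 1 of 11 rose there, the chemokine receptor Cxcr4 (1.18 log2, adjusted p = 0.0195), and 1 fell, the claudin Cldn6 (-1.25, adjusted p = 0.00525). In formative knockout against floxed cells 5 of 17 streak and mesoderm genes rose and 2 fell, where 14.8% of all genes rose or fell. Kdr (2.82 log2, adjusted p = 0.000473) and Cdx2 (2.74, adjusted p = 0.00573) rose most. Hoxb1 (-2.33 log2, adjusted p = 6.59e-05) and Cdx4 (-2.17, adjusted p = 0.0117) fell. Of 10 endoderm and node genes tested 1 rose, Foxa1 (2.25 log2, adjusted p = 0.00247), and none fell.

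The signals upstream of the streak were read from 24 genes with a row, most of them too abundant for library values. Wnt3, a ligand that starts the streak in the mouse embryo, had deposited means of 7.34 and 17.2 CPM in formative and naive knockout cells, the first of which includes the shared library. Means of 10.2 and 1.20 CPM were deposited for formative and naive floxed cells, 6.21 and 2.26 CPM for formative and naive catalytic-dead cells, and 30.9 and 0.807 CPM for formative and naive wild-type cells. In naive knockout against floxed cells Wnt3 rose by 3.63 log2 (adjusted p = 1.06e-07) and the Wnt antagonist Dkk1 by 4.69 (adjusted p = 3.20e-07), the 2 of 11 tested that passed, where 15.8% of all genes did. Over the knockout transition both fell, Wnt3 by 1.22 log2 (adjusted p = 0.000309) and Dkk1 by 4.32 (adjusted p = 4.69e-07). They were the 2 of 10 tested that fell there, while 3 rose, where 24.2% of all genes rose or fell. The ligand Bmp4 (2.5 log2, adjusted p = 3.66e-05) and Acvr1b (1.53, adjusted p = 0.00092) rose most. Axin2, a feedback gene of Wnt signalling, fell by 2.32 log2 in the catalytic-dead line against wild type in the formative state (adjusted p = 0.000249), and the ligand Bmp4 rose by 1.05 (adjusted p = 0.0242). These were the 2 of 6 tested that passed, where 6.15% of all genes did. In formative floxed against wild-type cells 2 of 6 passed and both fell, where 4.78% of all genes fell. These were Axin2 (-1.60 log2, adjusted p = 0.0014) and the Wnt effector Lef1 (-1.33, adjusted p = 0.000359). Nodal itself had deposited means of 37.8 and 124.0 CPM in formative and naive knockout cells. It had 83.7 and 91.8 CPM in formative and naive floxed cells, 85.5 and 87.0 CPM in formative and naive catalytic-dead cells, and 129.0 and 90.7 CPM in formative and naive wild-type cells. The formative knockout mean includes the library shared with the catalytic-dead column, and no test was made of these means.

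Genes whose pattern over the 8 deposited group means was most like that of a member were sought among 2362 genes with at least 5 CPM in their highest group and a range of at least 2 log2. Each correlation has 8 points that share lines and states, and is a description. The formative knockout mean used in them includes the library shared with the catalytic-dead column. The nearest to T were AI661453 (Pearson r = 0.990) and Rab25 (0.946), both highest in formative wild-type cells. For Eomes they were Csrnp1 (0.853) and Bmerb1 (0.835), and for Evx1 Ifitm7 (0.819) and Axin2 (0.787). Foxa2 was matched best by 1700020N01Rik (0.929) and Efnb1 (0.922), Gsc by Trim47 (0.920) and Pecam1 (0.903), and Mixl1 by Eef2k (0.797) and Tunar (0.785). Those nearest to Foxa2, Gsc and Mixl1 were highest in naive knockout cells. Among the members the highest correlation over the same 8 means was that of Eomes with Evx1 (0.64) and the lowest was that of T with Foxa2 (-0.36).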

How the data were processed

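Per the labels' protocols, QuantSeq 3′ FWD libraries were read as single ends. The submitters' processing notes name cutadapt 2.5, STAR, featureCounts of Subread 1.6.4, DESeq2 1.34.0 and mm10. The authors deposited 1 table of log2 values, 16617 genes in 8 group columns with 9 decimals; tested on the file, these are log2 CPM with 2 as the prior count, scaled by library size, then averaged over libraries. The column marked CKO was read as the floxed line, and 0 other columns were left out. Whole library counts were solved from each average, for 8957 genes (53.9%) in all groups; abundant genes have no library values and no test. The procedure was checked on simulated data. A library in 2 columns gave the same count from both for 7178 of 7180 genes, and a further library, in no column, accounts for 6812462 counts.

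The recovered values were fitted with limma 3.58.1 (R 4.3.3) in 1 model of 8 groups, with lowess weights (span 0.3) and trended variances. Genes needed 0.981 CPM (10 counts at the median library size) in 3 libraries; 14644 passed, as did all 6 described here. P-values were adjusted by Benjamini-Hochberg within each comparison over every gene tested, with 0.05 as the threshold. Floors of 3 counts cover counting error only. The named genes are the members, the 2 genes of a list with the largest change per direction past the threshold, and the 2 most like each member. Hand-picked exceptions were chosen after their values were seen. They are Kmt2c, Kmt2d, Wnt3, Nodal, Dab2, Col4a1, Sparc, Lamc1, Krt18, Tfap2c and Nes by deposited means, Gata4, Gata6 and the genes of the states' check. The members and lists were chosen with earlier results of these data known, and the difference of transitions between floxed and wild type was added after values were seen. The series' design text says that replicates come from independent cultures. The alternatives were no weights, the groups of a contrast alone, median-of-ratios size factors, a prior count of 0.5, no filter, a filter at 4.91 CPM, the knockout column as deposited and each library left out.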

Additional observations from a re-analysis of the deposited data

Results flagged for a closer look

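The change of Eomes and Evx1 over the transition differed between lines by a test of the difference itself. For Eomes it was 3.40 log2 in knockout less floxed cells, -3.98 in catalytic-dead less wild-type cells and -3.11 in floxed less wild-type cells. For Evx1 it was -3.42 log2 in catalytic-dead less wild-type cells and -4.69 in floxed less wild-type cells. The first of these calls was lost when library a of naive wild-type cells was left out (adjusted p of limma 0.0595), and likewise library c of naive catalytic-dead cells (0.0532), with 0.00684 to 0.0595 over 19 fits.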

How the results depend on the processing

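No paired analysis was possible because the deposited columns and the recovered libraries carry no replicate numbers. Apart from leaving out libraries, 499 values of single genes kept direction and side of the threshold, 3 gained and 4 lost the threshold, and 1 changed sign (Gsc in formative catalytic-dead against wild type, 0.03 log2, -0.05 with size factors). Size factors shifted the median of all genes by -0.14, -0.15 and -0.26 log2 in the wild-type, floxed and knockout transitions, by -0.13 in the naive catalytic-dead comparison and by -0.11 in knockout less floxed. Of the counts 86 stayed within 1.5 times. Under the filter 5 times stricter fewer genes are tested, and Gsc, Mixl1 and Foxa2 themselves did not pass it. That filter gave 1 gene in the knockout transition, 1 in naive knockout against floxed and 2 in knockout less floxed. Formative knockout against floxed gave 1 with the smaller prior count and 1 with the column as deposited; the cause was not tested.

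With each library left out, the counts ran from 1 to 2 in the catalytic-dead transition (2 without naive catalytic-dead library a or c), 0 to 3 in formative knockout against floxed, 0 to 2 in naive catalytic-dead against wild type (0 without naive wild-type library a, 2 without naive catalytic-dead library c) and 0 to 1 in naive floxed against wild type. They ran from 1 to 2 in knockout less floxed and 1 to 2 in catalytic-dead less wild type. Signs that turned were all of differences that did not pass. In the transitions these were Mixl1 in floxed (-0.50 to 0.13 log2), T in knockout (-0.75 to 0.06) and Evx1 in knockout (-0.63 to 0.23). In naive knockout against floxed it was Mixl1 (-0.02 to 0.17). Naive catalytic-dead against wild type had T (-1.20 to 0.43), Evx1 (-0.30 to 0.57) and Gsc (-0.24 to 0.18), and the formative comparison had Gsc (-0.13 to 0.16). Naive floxed against wild type had T (-0.04 to 1.58) and Gsc (-0.29 to 0.59), and the formative comparison had Gsc (-0.12 to 0.17) and Mixl1 (-0.75 to 0.12). Gsc also turned in catalytic-dead less wild type (-0.15 to 0.27) and floxed less wild type (-0.56 to 0.32). T, Evx1 and Foxa2 have under 10 counts in many libraries, so differences among their low groups are limited by depth.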
